A study of Homo sapiens and Mus musculus with 9 samples.

Results

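GAS5, SNHG1, SNHG29 and DANCR are 4 human genes whose long noncoding transcripts carry small nucleolar RNAs (snoRNAs) in their introns. Their peaks were taken as every called peak whose summit lay inside the hg38 span of one of these genes, whatever else was annotated at the summit. This gave 19 of the 3706 peaks in 3 human peak lists. There were 9 of 1557 in the HepG2 list, 2 of 46 in the LS174T list named for the PXR knockout and 8 of 2103 in the LS174T list named for the wild type.

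The study used enhanced UV crosslinking and immunoprecipitation with sequencing (eCLIP), which maps RNA that UV light has joined to a protein, on PXR, the pregnane X receptor, which the gene NR1I2 encodes and through which cells sense drugs and bile acids. Its human samples were HepG2 cells, a hepatocellular carcinoma line, as 1 input and 2 immunoprecipitates (IPs) with an antibody to the HA tag, and LS174T cells, a colorectal adenocarcinoma line. The LS174T samples were 1 IP from PXR knockout cells and 1 IP from wild-type cells, both with an antibody to PXR, and 1 wild-type input. All cells were crosslinked and digested with RNase I, and the labels name no other treatment and do not say whether the knockout line was 1 clone. The labels do not say what carried the HA tag in HepG2 cells.

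The LS174T lists have unsettled origins. In the record, one list belongs to the wild-type IP and the other to the wild-type input, whereas the list names and the peak names inside them read KO and WT, in the same order. They are called the KO-named and the WT-named list, and no direction between genotypes, or between IP and input, is drawn from them. Each list is 1 set of called peaks with no values per library, so no replicate spread exists, no test was made, and intervals cover counting error only. Of 14 hepatocyte marker genes (albumin and other plasma protein genes) none had a peak in any of the 3 lists. The exact interval of that share was 0.0 to 23.2% in each list. Over all nuclear protein-coding and lncRNA genes the share was 3.34% in HepG2, 0.073% in the KO-named list and 4.24% in the WT-named list. These all-gene shares lay inside the interval, as they would for any 14 genes without a peak. They are not matched for RNA level, so the comparison cannot show whether a list lacks hepatocyte RNA. Of 14 colon epithelium markers, 3 had a peak in the HepG2 list, 0 in the KO-named list and 9 in the WT-named list. Their intervals were 4.66 to 50.8%, 0.0 to 23.2% and 35.1 to 87.2%, in the same order. The HepG2 and WT-named intervals lay above the all-gene shares, with gene length and RNA level not matched.

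A snoRNA host gene is transcribed as 1 long precursor. Splicing frees the introns, whose ends are trimmed back to snoRNAs held in protein complexes, while the joined exons form a long noncoding RNA that often meets the ribosome and is then degraded by nonsense-mediated decay. C/D box snoRNAs (SNORD) guide ribose methylation of ribosomal and other RNAs, and H/ACA box snoRNAs (SNORA) guide the change of uridine to pseudouridine. GAS5 (growth arrest specific) has a spliced RNA known to bind the DNA-binding domain of the glucocorticoid receptor, another nuclear receptor. SNHG1 was described as the host of the U22 snoRNA. DANCR is known as a noncoding RNA that holds back differentiation.

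The genes differ in what they carry. GAS5 (chromosome 1, 173863901 to 173869045, minus strand) holds 11 snoRNA genes in a span of 5145 bp, and SNHG1 (chromosome 11, 62851978 to 62855885, minus strand) holds 9 in 3908 bp. SNHG29 (chromosome 17, 16438987 to 16470648, plus strand) holds 3 in 31662 bp. DANCR (chromosome 4, 52712394 to 52720697, plus strand) holds 1 snoRNA gene, SNORA26, and 1 microRNA gene, MIR4449, in 8304 bp. The map of peaks along the genes shows these small RNAs with the called peaks.

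**Figure D1:**
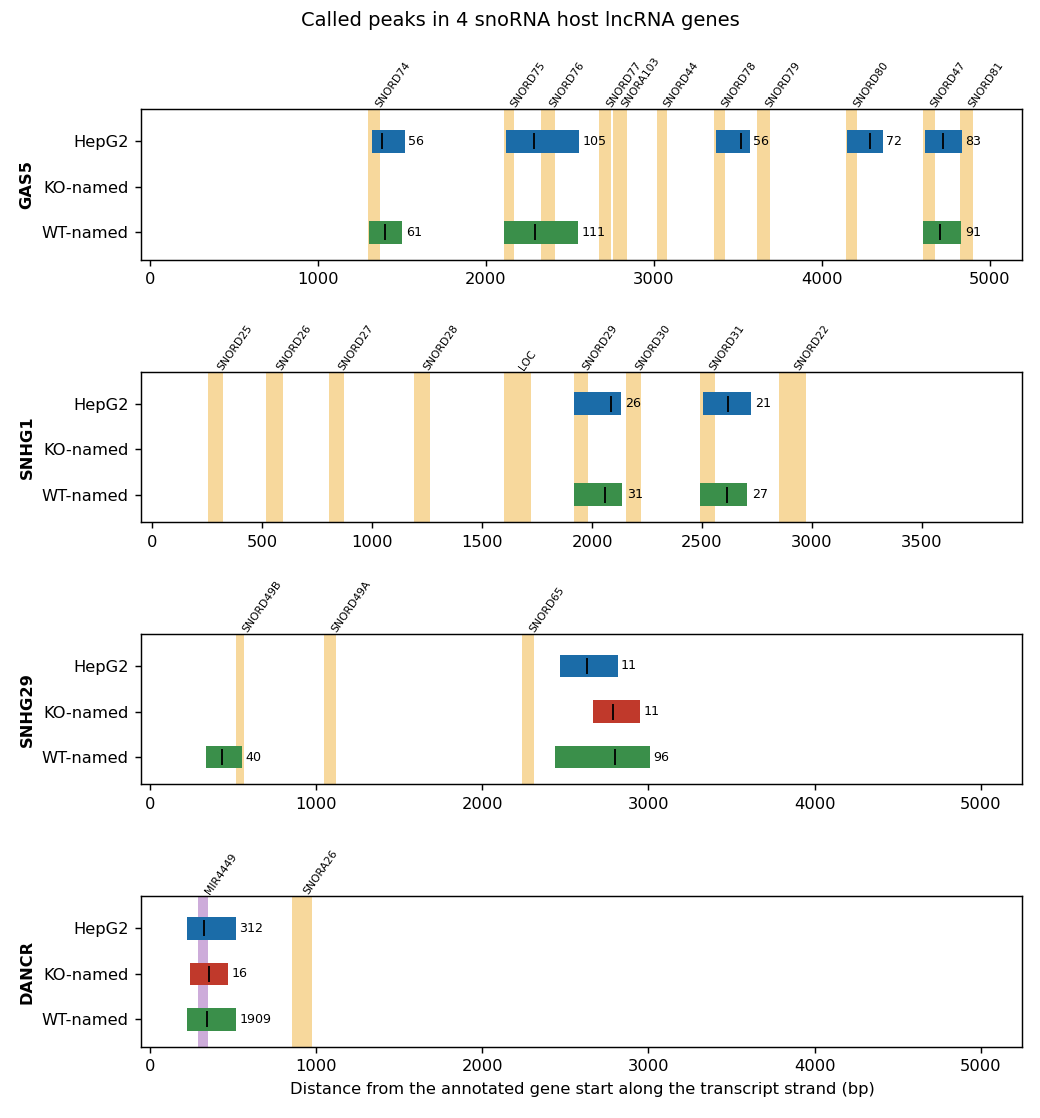
Called peaks (bars) with their summits (black ticks) and summit reads (numbers) in GAS5, SNHG1, SNHG29 and DANCR, against distance in bp from the annotated gene start, with a row for the HepG2, KO-named and WT-named list. Orange bands are snoRNA genes and the purple band is MIR4449 (LOC is the snoRNA gene LOC124900306), and SNHG29 and DANCR are drawn for their first part, which holds all their peaks. In GAS5 and SNHG1 each bar begins inside a snoRNA, and in DANCR all 3 bars cover MIR4449.

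The sequence of the microRNA under the DANCR peaks is shown because the summit of the deepest site among the 4 genes falls on it in the HepG2 and the WT-named lists. Both sequences are from RefSeq (GRCh38.p14). In the hairpin (chr4:52712682-52712747, plus strand, 66 bases, 86.4% G or C) the capitals mark the mature microRNA, and in the mature sequence (chr4:52712720-52712741, 22 bases) they mark the seed, bases 2 to 8.
MIR4449 hairpin: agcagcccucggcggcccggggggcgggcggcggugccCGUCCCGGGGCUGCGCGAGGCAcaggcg
hsa-miR-4449: cGUCCCGGggcugcgcgaggca
Among 2370 mature microRNA names in the table, hsa-miR-4449 alone had this seed.

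All 4 genes had a peak in both the HepG2 and the WT-named list, and SNHG29 and DANCR also had one in the KO-named list. As background, 3.34% of 38340 nuclear protein-coding and lncRNA genes held a summit in HepG2, 0.073% in the KO-named list and 4.24% in the WT-named list. Among lncRNA genes alone it was 1.03%, 0.0328% and 0.962%, in the same order. The 4 genes were chosen with earlier results of these data known, so their having peaks is no test against these shares. Genes with 2 or more summits were 0.292% in HepG2, which included GAS5 and SNHG1, 0.00522% in the KO-named list, and 0.829% in the WT-named list, which included GAS5, SNHG1 and SNHG29. All 19 peaks lay on the strand of their host gene. Over all peaks in a lone gene of known strand, that held for 84.6% in HepG2, 88.2% in the KO-named list and 93.5% in the WT-named list. SNHG29 peaks whose summits the protein-coding gene LRRC75A also covers were left out of those shares. No list had a further peak within 5000 bp outside the 4 spans.

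GAS5 carried 5 peaks in HepG2, 0 in the KO-named list and 3 in the WT-named list. At the site by SNORD75 and SNORD76 the summit held 105 reads in HepG2 (exact Poisson 95% interval 85.9 to 127) and 111 in the WT-named list (interval 91.3 to 134). By SNORD47 it held 83 reads in HepG2 (interval 66.1 to 103) and 91 in the WT-named list (interval 73.3 to 112). By SNORD74 it held 56 in HepG2 (interval 42.3 to 72.7) and 61 in the WT-named list (interval 46.7 to 78.4). At all 3 sites the intervals of HepG2 and the WT-named list overlapped, and the sites stood in the same order of depth in both.

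The remaining GAS5 peaks were called in HepG2 and not in the LS174T lists. They lay by SNORD80, with 72 reads (interval 56.3 to 90.7), and by SNORD78, with 56 reads (interval 42.3 to 72.7). At the background of 11.0 reads around GAS5 in the WT-named list, a site needed 28 reads to reach the lowest −log10 p of that list, 5.10. A stretch above the threshold but shorter than the shortest peak of 200 bp may also be missing from a list, so the level at these places in LS174T is not known.

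Reads at GAS5 were spread along the gene. In HepG2 the 5 summits together held 372 of the 557 reads of the surrounding 10000 bp window (66.8%), and no single summit held above 18.9%. In the WT-named list the 3 summits held 263 of 552 reads (47.6%). The windows around GAS5 thus held nearly the same number of reads in the HepG2 and WT-named lists, a ratio of 1.01.

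SNHG1 showed the same arrangement at lower depth, with 2 peaks in HepG2, 0 in the KO-named list and 2 in the WT-named list. By SNORD29 the summit held 26 reads in HepG2 (interval 17.0 to 38.1) and 31 in the WT-named list (interval 21.1 to 44.0). By SNORD31 it held 21 in HepG2 (interval 13.0 to 32.1) and 27 in the WT-named list (interval 17.8 to 39.3). The intervals overlapped at both sites. The windows held 71 to 72 reads in the HepG2 list and 78 in the WT-named list, of which the summits made up 65.3% and 74.4%, HepG2 first.

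**Figure D2:**
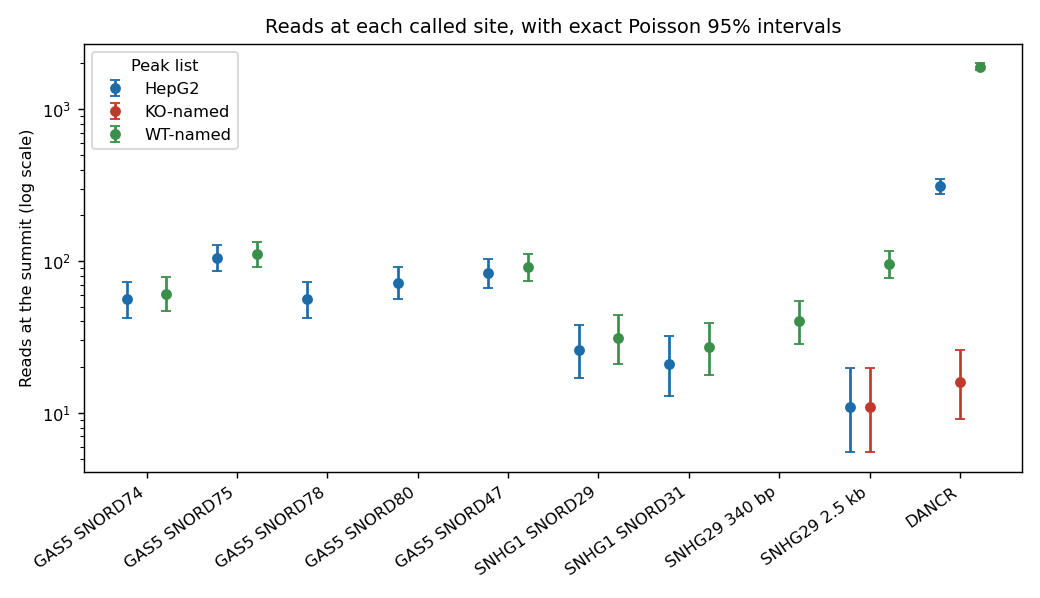
Reads at the summit of each called site (log scale) in the HepG2, KO-named and WT-named lists, with exact Poisson 95% intervals as bars; sites are named by the snoRNA at the peak's 5′ edge, or for SNHG29 by distance from the gene start. GAS5 and SNHG1 sites called in both HepG2 and the WT-named list have overlapping intervals, whereas SNHG29 (11 against 96 reads) and DANCR (312 against 1909) do not.

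By their summits, 1 of 9 HepG2 peaks, 0 of 2 KO-named peaks and 1 of 8 WT-named peaks in the 4 genes lay on an annotated small RNA, against 0.45%, 0.0% and 0.476% of all peaks of those lists. Both were in DANCR, and every summit in GAS5 and SNHG1 fell outside the snoRNA genes. The edges of the peaks gave another place. The edge at which a peak begins, read along its strand (its 5′ edge), lay inside a snoRNA gene for 7 of 7 HepG2 peaks in GAS5 and SNHG1 and for 5 of 5 WT-named peaks. Over all peaks of a list, the GAS5 and SNHG1 peaks included, the share was 1.03% in HepG2 (16 of 1557). It was 0.0% in the KO-named list (0 of 46) and 0.808% in the WT-named list (17 of 2103). In other genes whose span holds a snoRNA gene, it was 8 of 77 peaks in HepG2, 0 of 4 in the KO-named list and 11 of 163 in the WT-named list. These shares are not matched for how much of a span snoRNA genes fill. GAS5 holds 11 snoRNA genes in 5145 bp and SNHG1 holds 9 in 3908 bp. RefSeq's gene table gave no strand for snoRNAs, and they were taken to lie on the strand of the peak.

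In the WT-named list these edges met the annotated 5′ ends of the snoRNAs almost to the base. The peak by SNORD75 began at its first base (0 bp inside, position 173866938), that by SNORD47 began 1 bp inside and that by SNORD74 began 2 bp inside. In SNHG1 the peak by SNORD29 began at the first base (position 62853968) and that by SNORD31 began 1 bp inside. In HepG2 the 7 edges lay 2 to 20 bp inside, with a median of 13, and at each of the 5 sites called in both lists the HepG2 edge lay further in. The cause of that offset was not tested.

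The distance between edge and summit bears on how the peaks were made. The shortest peak was 200 bp in all 3 lists, and 804 of 1557 HepG2 peaks had exactly that width. The deposited backgrounds moved in steps of 0.02 reads, as whole reads extended to 200 bp in a window of 10000 bp would give. If reads were so extended and not shifted, the edges of the GAS5 peak by SNORD74 place read starts inside SNORD74 (173867674 to 173867745). These were 173867725 in HepG2 and 173867740 to 173867743 in the WT-named list. An edge marks where stacked reads passed the caller's threshold, so single reads may begin outside it. Around GAS5 in HepG2, 29 reads were needed to reach the lowest −log10 p of the list. The HepG2 summit, at 173867664, lay off the peak's middle, so on this reckoning its reads did not all begin at 1 base. With read starts placed by the edges in this way, those of all 12 peaks of GAS5 and SNHG1 met a snoRNA gene. They met 6 of the 11 snoRNA genes of GAS5 in the HepG2 list and 4 in the WT-named list, SNORD76 included, and 2 of the 9 of SNHG1 in each. Had reads been shifted back by 100 bp first, 1 HepG2 peak and 1 WT-named peak of these 12, those by SNORD75 and SNORD76, would do so. The caller's settings are not stated, and an annotation of exons was not used, so host exon and snoRNA reads cannot be separated further.

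**Figure D3:**
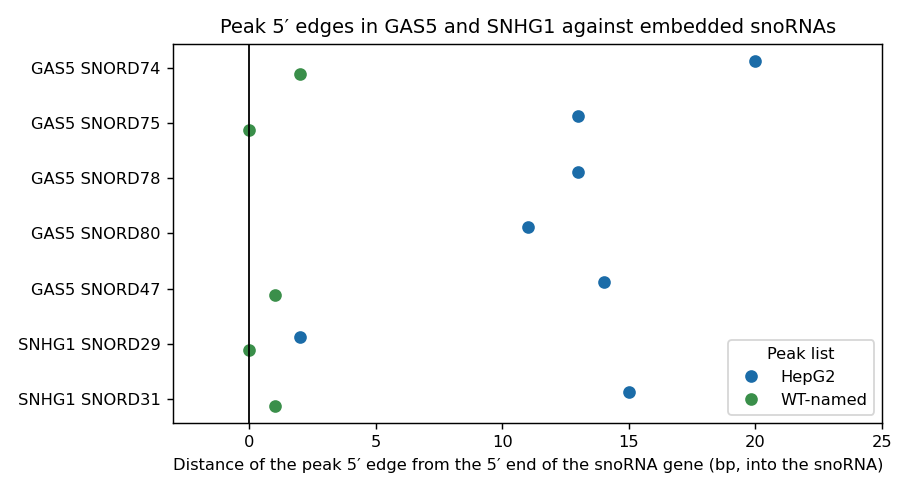
Distance in bp of the peak's 5′ edge from the annotated 5′ end of the snoRNA gene that holds it, for the GAS5 and SNHG1 sites in the HepG2 and WT-named lists; the vertical line at 0 is the snoRNA's first base. WT-named edges lie 0 to 2 bp inside and HepG2 edges 2 to 20 bp inside.

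Further peaks that began in a snoRNA gene were found outside the 4 genes. SNORD135 (3 bp inside in both lists) held 93 reads in the HepG2 list and 40 in the WT-named list, and SNORD103C (3 bp inside in both) held 24 and 32, HepG2 first. SNORD143 began 19 bp inside in HepG2 (20 reads) and 2 bp inside in the WT-named list (57 reads). These were chosen as examples after their values were seen. Over all such peaks outside the 4 genes the edge lay 3 to 147 bp inside in HepG2 (9 peaks, median 23) and 2 to 149 bp inside in the WT-named list (12 peaks, median 13). Those far inside included SNORD133 (147 bp in HepG2, 76 bp in the WT-named list) and SNORA88 (102 bp in both). The 5 C/D box sites of GAS5 in HepG2, at 56 to 105 reads, stood in the same range of depth as SNORD135 there. In the WT-named list SNORD135, at 40 reads, lay below the GAS5 sites, at 61 to 111 reads.

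SNHG29 differed in that no peak began in one of its snoRNAs. A wide site lay past SNORD65, the last of its snoRNA genes, and was called in all 3 lists. It held 11 reads in HepG2 (interval 5.49 to 19.7), 11 in the KO-named list (interval 5.49 to 19.7) and 96 in the WT-named list (interval 77.8 to 117). The WT-named interval lay above both others. The peak spanned 16441425 to 16441997 (573 bp) in the WT-named list, 16441453 to 16441802 in HepG2 and 16441656 to 16441936 in the KO-named list, and the HepG2 summit stood 172 bp from the WT-named one. LRRC75A, a protein-coding gene whose strand is not in the table, also covers these summits.

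The other SNHG29 peak was called in the WT-named list alone, at 16439326 to 16439545, with 40 reads (interval 28.6 to 54.5). It began 339 bp from the gene start and its far end overlapped SNORD49B, whereas its inferred read starts (16439326 to 16439346) lay before that snoRNA. The HepG2 window around SNHG29 held 58 reads, the KO-named window 26 and the WT-named window 237. A HepG2 site there needed 8 reads and a KO-named site 8 reads to reach the lowest p of its list.

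DANCR carried 1 peak per list and was the deepest of the 4 genes in every list. The summit held 312 reads in HepG2 (interval 278 to 349), 16 in the KO-named list (interval 9.15 to 26.0) and 1909 in the WT-named list (interval 1820 to 2000). The 3 intervals did not overlap. The peak lay 225 to 521 bp from the gene start in the WT-named list, and no list had a peak on SNORA26, the H/ACA snoRNA of the gene.

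The DANCR peak covered the whole MIR4449 hairpin in all 3 lists. The summit stood on base 42 of the hairpin in HepG2 and on base 57 in the WT-named list, both inside the mature microRNA shown above, and 4 bp past the hairpin's end in the KO-named list. Peaks with a summit in any microRNA gene made up 0.193% of the HepG2 list (3 of 1557), 0.0% of the KO-named list and 0.0951% of the WT-named list (2 of 2103). The other microRNA genes at a summit, named because they were few, were MIR4523 (11 reads) and MIR6850 (27 reads) in HepG2 and MIR3661 (8 reads) in the WT-named list. With unshifted 200 bp extension, the peak edges placed read starts from 62 bp before the hairpin's first base to 32 bp after it in HepG2. The range was 48 to 17 bp before it in the KO-named list, and 63 bp before to 34 bp after it in the WT-named list. Single reads may begin outside these ranges. The mature microRNA lies downstream of those starts, and reads of the hairpin and of the DANCR transcript around it cannot be told apart in the lists.

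Unlike GAS5, DANCR had nearly all reads of its neighbourhood in 1 stack. The summit held 312 of 319 window reads in HepG2 (97.8%), 16 of 19 in the KO-named list (84.2%) and 1909 of 1920 in the WT-named list (99.4%). Among nuclear peaks of at least 10 reads, 22.6% in HepG2, 43.3% in the KO-named list and 18.7% in the WT-named list held at least 80% of their window at the summit. The reads may include PCR copies, whose part in such stacks was not tested.

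**Figure D4:**
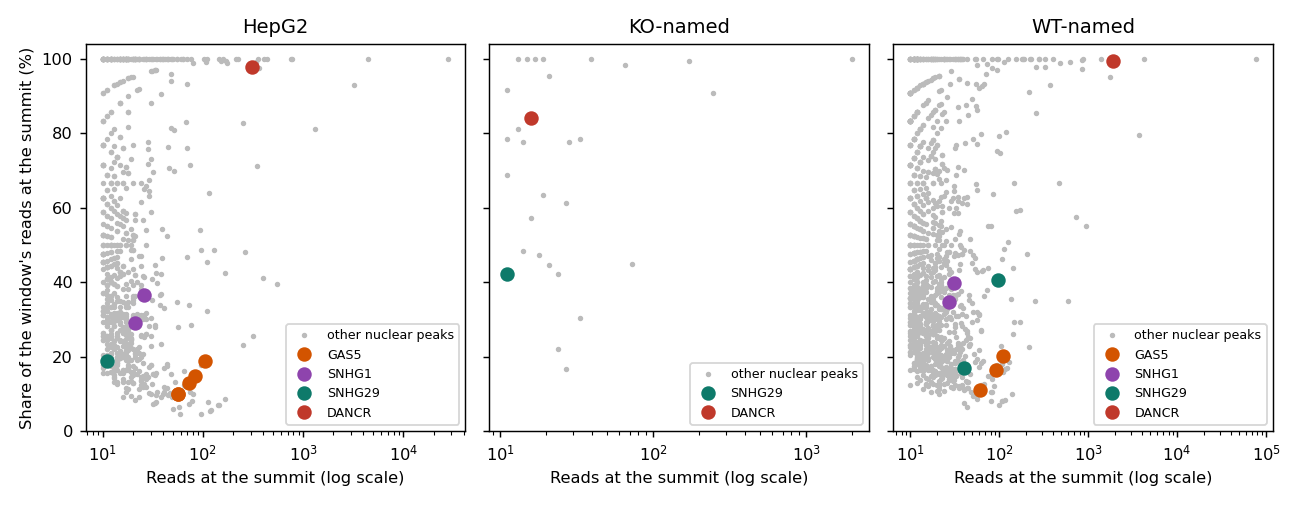
Share of the reads of the 10000 bp window that lay at the summit (percent) against summit reads (log scale), for nuclear peaks of at least 10 reads in the HepG2, KO-named and WT-named lists; coloured points are the 4 host genes. DANCR stands at 97.8%, 84.2% and 99.4% in that order, while GAS5 peaks stay at or below 18.9% in the HepG2 list and 20.1% in the WT-named list.

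The 4 genes also stood apart from one another when lists were compared site by site. Of the 9 HepG2 peaks, 7 overlapped a WT-named peak on the same strand, against 38.5% of all HepG2 peaks and 82.2% of those with at least 50 reads. The last share is not for a like set, because the SNHG1 and SNHG29 peaks among the 9 held 11 to 26 reads. The GAS5 peaks without a WT-named match held 72 and 56 reads. Over 590 shared nuclear sites the median ratio of HepG2 to WT-named reads was 0.911 (quartiles 0.545 and 1.40). The GAS5 sites lay at the middle of that range, at 0.912 (exact 95% interval 0.669 to 1.24), 0.946 (interval 0.717 to 1.25) and 0.918 (interval 0.627 to 1.34). SNHG1 sites lay close by, at 0.778 (interval 0.418 to 1.43) and 0.839 (interval 0.478 to 1.46).

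DANCR and SNHG29 lay at the low end of the same range. The DANCR ratio was 0.163 (interval 0.145 to 0.184), and 2.03% of shared sites had a lower one. The SNHG29 ratio was 0.115 (interval 0.0554 to 0.214), with 1.36% of shared sites below it. That pair had summits 172 bp apart and did not count as shared with summits within 50 bp, and its HepG2 peak, at a −log10 q of 3.99, dropped out with −log10 q of at least 5. Whole windows gave 0.166 for DANCR and 0.245 for SNHG29. These ratios compare 2 lists, not 2 conditions.

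**Figure D5:**
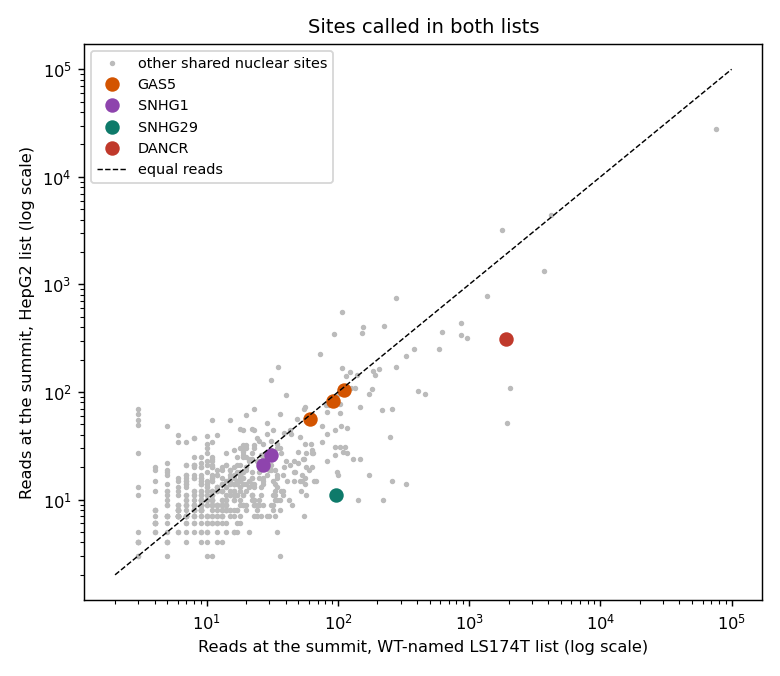
Reads at the summit in the HepG2 list against the WT-named LS174T list (both log scale) for 590 nuclear sites called in both, with the 7 sites of the 4 host genes in colour and a dashed line of equal reads. GAS5 and SNHG1 sites lie along the line, and DANCR and SNHG29 lie well below it.

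Both peaks of the KO-named list in these genes overlapped a WT-named peak, as did 95.7% of the 46 KO-named peaks. Over 38 shared nuclear sites the median ratio of KO-named to WT-named reads was 0.171 (quartiles 0.0681 and 0.373). SNHG29 had a ratio of 0.115 (interval 0.0554 to 0.214), within the quartiles. DANCR had a ratio of 0.00838 (interval 0.00478 to 0.0136), and 2.63% of the shared sites had a lower one. Divided by the median ratio, these values were 0.671 for SNHG29 and 0.0489 for DANCR. The KO-named list had no peak in GAS5 or SNHG1, and their level there is not known. Without replicates or a settled origin of the lists, these values describe 2 lists.

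Ranked by highest summit among genes with a peak, DANCR was 8th of 1280 in HepG2, 15th of 28 in the KO-named list and 4th of 1624 in the WT-named list. GAS5 was 21st in HepG2 and 38th in the WT-named list, and SNHG1 114th and 161st, HepG2 first. SNHG29 was 489th in HepG2, 20th in the KO-named list and 44th in the WT-named list. The ranks rest on reads at a summit and not on reads per length of transcript.

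The genes most like each member were those nearest in log2(highest summit reads + 1) over the 3 lists. For GAS5 the nearest was the keratin gene KRT18 (110 reads in HepG2, 0 called in the KO-named list, 125 in the WT-named list), at a distance of 0.182 on the log2 scale, followed by the nuclear lncRNA NEAT1 (distance 0.420) and ZNF496-DT (0.455). For SNHG1 they included SYPL1 (0.112) and SET (0.152). LRRC75A shares the peaks of SNHG29, and the next were the glucose transporter gene SLC2A1 (17, 9 and 100 reads in HepG2, the KO-named and the WT-named list, distance 0.644) and GOLGA3 (1.52). DANCR had no close match. CNTN3 and LOC105377166, which share 1 site, were nearest at 2.60, before KRT8 at 3.35.

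Peaks were also called in other snoRNA host lncRNAs. Of 30 further such genes, 4 had a peak in HepG2 (13.3%, Clopper-Pearson 95% interval 3.76 to 30.7%), 0 in the KO-named list (interval 0.0 to 11.6%) and 6 in the WT-named list (20.0%, interval 7.71 to 38.6%), beside the 3.34%, 0.073% and 4.24% of all genes given above. In HepG2 they were SNHG10 (9 reads), SNHG25 (7 reads), SNHG16 (6 reads) and MEG8 (5 reads, at a summit that RTL1 also covers). In the WT-named list SNHG22 held 722 reads at a summit inside SCARNA17, a small Cajal body RNA. It was followed by SNHG8 (17 reads), SNHG7 (10 reads) and, at 8 reads each, SNHG6, SNHG25 and ZFAS1. LOC124900276 also covers the SNHG7 summit, and MCMDC2 the SNHG6 summit. None of these 10 peaks began inside a snoRNA gene. SNHG25 was the gene of this list with a peak in both HepG2 and the WT-named list.

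Among all 696 other protein-coding and lncRNA genes whose span holds a snoRNA gene, 70 had a peak in HepG2 (10.1%, interval 7.92 to 12.5%), 4 in the KO-named list (0.575%) and 132 in the WT-named list (19.0%, interval 16.1 to 22.1%). Gene length and RNA level were not matched. Genes for snoRNP proteins and their assembly factors had a peak in 2 of 18 in HepG2 (11.1%, interval 1.38 to 34.7%), 0 of 18 in the KO-named list and 3 of 18 in the WT-named list (16.7%, interval 3.58 to 41.4%). In HepG2 they included NHP2, an H/ACA core protein (11 reads). In the WT-named list they were the helicase RUVBL2 (10 reads), the H/ACA core protein NOP10 (8 reads) and the nucleolar chaperone NOLC1 (8 reads). Of 17 genes of nonsense-mediated decay, the pathway that degrades many host transcripts, UPF1 alone had a peak, with 7 reads in the HepG2 list and 6 in the WT-named list. That share, 5.88% in each (interval 0.149 to 28.7%), lay near the 3.34% and 4.24% of all genes, and the intervals of the snoRNP shares also held these all-gene shares.

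Host lncRNAs are often transcribed from starts with a terminal oligopyrimidine tract. A C followed by at least 4 bases that are C or T, starting within 5 bases of the annotated start on the gene's strand, was found in 1 of the 4 promoters, that of DANCR. It was found in 12 of 26 promoters of the other host lncRNAs (46.2%) and in 21.1% of 35116 promoters in the RefSeq table. The search rested on 1 annotated start per gene. A tract at a different start used in cells would be missed, so GAS5, SNHG1 and SNHG29 are not shown to lack one. No peak lay in the promoter windows of the 4 genes, which reach 50 bases past the start.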

How the data were processed

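The data were 3 human peak lists from eCLIP. The submitters' processing notes name cutadapt, BWA and MACS2 and the build hg38, without versions or settings. The mouse liver list was not used here. The columns deposited by the authors were a score, the ratio of the summit to the caller's background (fold enrichment), the −log10 p and −log10 q of the peak, and the summit's offset. The deposited peak names show that each strand was called on its own. Whether the 2 HepG2 IP libraries were pooled is not stated.

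Summit reads n were recovered from the deposited fold, (n + 1) / (λ + 1), and the Poisson −log10 p, with the background λ a multiple of 0.02 reads (whole reads of a 10000 bp window). A unique solution was found for 1555 of 1557, 46 of 46 and 2099 of 2103 peaks (HepG2, KO-named, WT-named), including all 19 reported here. The recovery was tried on simulated peaks made with these same formulas. That checks the solving and not whether the caller used the formulas. Depth is therefore known per site and window and not per library.

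Genes came from the RefSeq table (GRCh38.p14), without exons and without strand for snoRNAs, so snoRNA hosts were matched by span and not, as planned, by strand. Positions count from 1. Sites were shared where peaks of a strand overlapped by 1 bp or more. Intervals are exact (Poisson, Clopper-Pearson) at 95%. No test was made, because no list holds replicates. Named genes were the 4 hosts with every peak, all other host lncRNAs with a peak, up to 4 genes each, by reads, of the snoRNP and decay lists, and the 3 nearest genes per host, of which 1 is not reported here. Members and lists were chosen with earlier results of these data known. Computation used Python 3.11.15, numpy 2.4.6, pandas 2.3.3 and scipy 1.17.1.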

Additional observations from a re-analysis of the deposited data

How the results depend on the processing

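Peaks per list and members with a peak stayed within 1.5 times under each alternative tried (any overlap, the gene's strand, −log10 q of at least 5, at least 10 reads). With −log10 q of at least 5, SNHG29 left the HepG2 list and 3 members remained there. Shared HepG2 and WT-named sites were 7, or 6 with summits within 50 bp, where SNHG29 was lost. Scaling by the median ratio moved none of the 7 HepG2 to WT-named ratios out of its interval. The same scaling, added for the KO-named list after seeing the data, moved both KO-named to WT-named ratios above their intervals, to 0.671 for SNHG29 and 0.0489 for DANCR. Summit reads were identical without the whole-number condition.

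The placement on an embedded small RNA depended on the definition. The summit rule gave 1 peak in HepG2, 0 in the KO-named and 1 in the WT-named list, all MIR4449. In the same order of lists, the counts were 0, 0 and 0 when most of the peak's width (0.5 or more) had to lie inside, 4, 1 and 4 within 50 bp, and 8, 1 and 7 for any overlap. Inferred read starts gave 8, 0 and 6 without a shift and 2, 1 and 2 with a shift of 100 bp. These last rules were chosen after seeing the data. Of the other host lncRNAs, peaks of at least 10 reads remained in 0 (HepG2) and 3 (WT-named).

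No paired analysis was possible because each list holds 1 value per peak with no replicate numbers, and leaving out a replicate was not possible for the same reason. Sites of few reads, such as SNHG29 at 11 reads, carry wide intervals.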
